A study of Homo sapiens with 8 samples.

Results

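The genes described here are 10 members of the ETS family of transcription factors, ETS1, ETS2, ELF1, ELF3, ELF4, EHF, ETV4, ETV5, ETV6 and ELK3, out of 23193 genes counted. They were chosen by gene symbol with earlier results of these counts in view. Their fold changes and calls are therefore given as a description, without p-values of single members. Nascent transcription was measured by precision run-on sequencing (PRO-seq), which maps engaged RNA polymerase II (RNAPII) by letting it add biotin-labelled nucleotides in isolated nuclei. The cells were HCT116, a human colorectal carcinoma line, either wild-type (WT) or HIF1A-/-, the latter a single derived line in which exons of HIF1A were disrupted by homologous recombination. Each genotype was kept in normoxia or held for 90 min in hypoxia at 1% O2, all in the DMSO vehicle, with 2 libraries in each of the 4 groups and 8 in all. Line and genotype cannot be told apart, because there was 1 HIF1A-/- line.

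ETS factors share a winged helix-turn-helix DNA-binding domain that reads a purine-rich core, GGAA, or TTCC on the opposite strand. Most members activate transcription, some downstream of RAS and MAP kinase signalling, while others, such as ETV6, repress it. ELF3 and EHF belong to the epithelium-specific branch of the family and are known for roles in differentiation of the gut and other epithelia. HIF1A is the oxygen-regulated subunit of the HIF1 transcription factor, which accumulates when oxygen falls and binds the core motif ACGTG or GCGTG.

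Gene body totals were 18125234 to 23622392 reads per library and totals over transcription start site (TSS) regions 2783581 to 5966348, with the lowest TSS totals in replicate 1 of HIF1A-/- cells in normoxia and in hypoxia. The study's methods describe replicates as independent biological duplicates, and the labels do not say what a replicate number shares between groups. Nascent reads over HIF1A itself did not test the label, since disrupted exons need not stop transcription of the locus. Its gene body level in CPM (counts per 1000000 reads) was 138 and 150.1 in normoxic WT cells, 129.5 and 161 in hypoxic WT cells, 165 and 137 in normoxic HIF1A-/- cells and 175 and 158 in hypoxic HIF1A-/- cells. The epithelial markers EPCAM, CDH1, KRT8 and KRT18 were read in all libraries, whereas the intestinal markers VIL1 and LGALS4 were near 0. Of 8 markers of blood, endothelial and stromal cells, 7 stayed at or below 1.62 CPM in every library, and COL1A1, at 20.0 to 49.3 CPM over its gene body, had almost no reads in its TSS region.

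Compared per length, in RPKM (reads per kilobase per 1000000 reads) over gene bodies, the members differed widely. In WT normoxia ELF3 was the most densely transcribed, with a mean density of 8.67 RPKM, followed by ETS2 at 3.46, ETV5 at 2.16 and ETV4 at 1.93 RPKM. ELF1 and ELK3, both 1.21 RPKM, overlapped each other, as did ELF4 at 1.10 and EHF at 1.01 RPKM. ETV6, at 0.526, and ETS1, at 0.216 RPKM, were the least dense. The ETS1 density is taken over its whole counted gene body, in which 6 of 9 annotated transcript starts lie. It therefore depends on which start was in use, which was not tested. In HIF1A-/- normoxia the order was headed by ETS2 at 3.31 RPKM, and ELF3, at 1.87 RPKM, overlapped ETV5 and ETV4. After hypoxia ELF3 was first again in both genotypes, at 24.5 RPKM in WT and 3.78 RPKM in HIF1A-/- cells, although in the latter its 2 libraries spanned the level of ETS2.

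**Figure D1:**
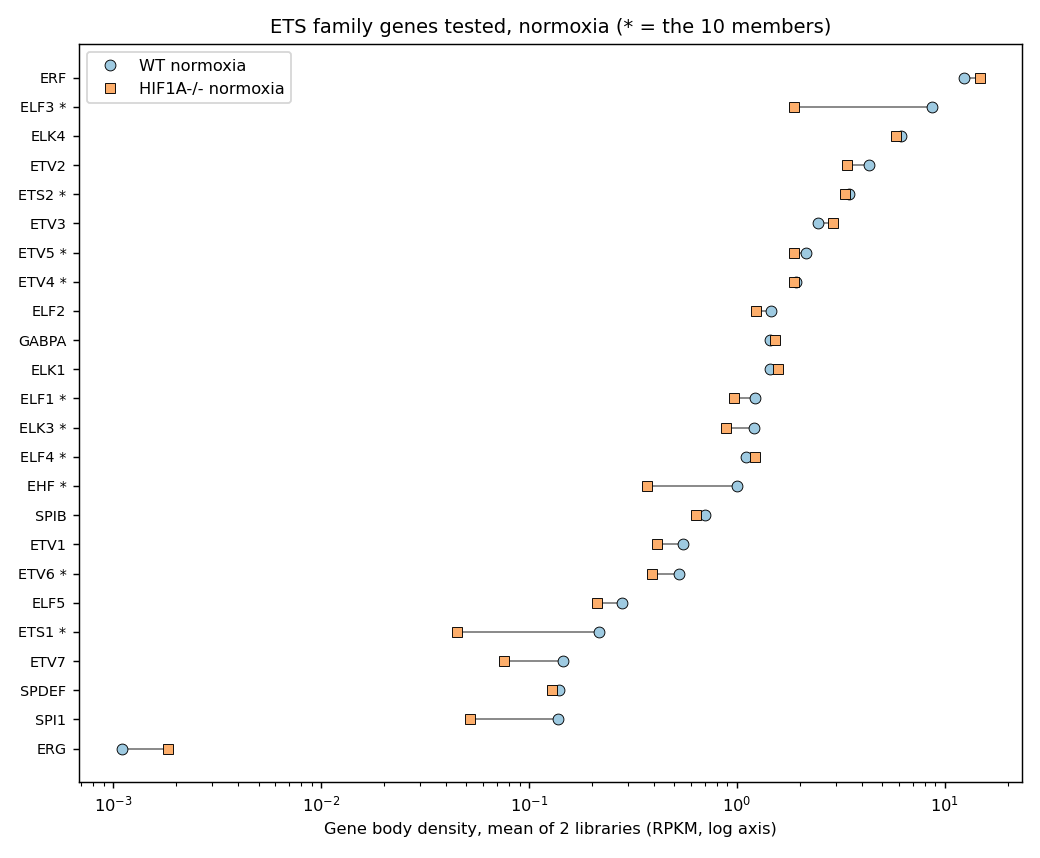
Mean gene body density in RPKM on a log axis of the 24 ETS family genes that passed the filter on low counts, in normoxic WT cells (circles) and HIF1A-/- normoxia (squares), each the mean of 2 libraries, with the 10 members marked by an asterisk. Among the members the widest gaps belong to ELF3 (8.67 and 1.87 RPKM), EHF and ETS1.

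Because ELF3, EHF and ETS1 showed the largest differences between genotypes, sequence before a start of each is shown (GRCh37), the counted RefSeq start for ELF3 and EHF, 5′ to 3′ on the gene's strand. Capitals mark the HIF cores ACGTG and GCGTG and the ETS core GGAA, each searched on both strands. For ETS1 the window is that before an annotated start 65.2 kb downstream of the counted one.
ELF3 (chr1:201979439-201979688, plus strand): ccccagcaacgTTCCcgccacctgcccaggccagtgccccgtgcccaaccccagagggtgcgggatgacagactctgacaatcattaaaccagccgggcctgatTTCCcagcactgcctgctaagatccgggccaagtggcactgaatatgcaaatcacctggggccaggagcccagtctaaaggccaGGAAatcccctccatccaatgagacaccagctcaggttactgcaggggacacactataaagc
EHF (chr11:34653760-34654009, plus strand): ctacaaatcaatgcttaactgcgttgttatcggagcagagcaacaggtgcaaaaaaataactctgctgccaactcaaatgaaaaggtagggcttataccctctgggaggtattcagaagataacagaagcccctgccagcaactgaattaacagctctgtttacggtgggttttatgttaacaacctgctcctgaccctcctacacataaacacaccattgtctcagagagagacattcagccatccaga
ETS1 downstream start (chr11:128392206-128392455, minus strand): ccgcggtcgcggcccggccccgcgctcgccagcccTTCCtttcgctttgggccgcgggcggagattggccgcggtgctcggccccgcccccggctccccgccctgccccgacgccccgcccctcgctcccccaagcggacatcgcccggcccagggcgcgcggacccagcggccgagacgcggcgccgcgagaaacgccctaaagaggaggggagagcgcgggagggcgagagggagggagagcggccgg
None of these 3 windows of 250 bases held either HIF core, while 5 of the 10 members' counted windows did (ELF1, ELF4, ELK3, ETV4 and ETV6), against 47.0% of the windows of all 23193 genes. GGAA was in 9 of 10 members' windows, EHF being the exception, and in 91.5% of all windows. The G and C content ran from 44.4% for EHF through 58.8% for ELF3 to 80.0% before the downstream ETS1 start. A match is a description of letters only, and no match says only that these letters are not in this window.

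ETS1, the founding member of the family and known for roles in lymphoid, endothelial and invasive tumour cells, was transcribed at a fraction of its WT level in HIF1A-/- cells. Its gene body (GRCh37 chr11:128328655-128456452, minus strand) held 24.4 and 30.8 CPM in normoxic WT cells and 33.7 and 45.3 CPM in hypoxic WT cells. In HIF1A-/- cells it held 4.83 and 6.67 CPM in normoxia and 8.96 and 8.54 CPM in hypoxia. All 4 HIF1A-/- libraries lay below all 4 WT libraries. Mean levels in WT were 4.80-fold those of HIF1A-/- cells in normoxia and 4.51-fold in hypoxia, log2 fold changes of HIF1A-/- over WT of -2.26 ± 0.25 and -2.17 ± 0.24 (SE). A difference was called where the quasi-likelihood test of edgeR, adjusted by Benjamini-Hochberg over all genes tested, put it below a false discovery rate (FDR) of 10%, and both genotype differences of ETS1 were. In a bulk library fewer transcribing cells and less transcription per cell cannot be told apart. Hypoxic libraries were above normoxic ones within each genotype, by 1.43-fold in WT and 1.52-fold in HIF1A-/- cells on the means, and neither difference was called.

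No read fell in the counted TSS region of ETS1 (chr11:128456953-128457503, minus strand) in any of the 8 libraries, although 101 to 1093 reads fell in the gene body. GENCODE places 3 of 9 ETS1 transcript starts in that region and 6 within the gene body, 2 of them at position 128392205. The count tables hold no position within the gene, so which start was in use was not tested. The study's methods chose 1 start per gene by ranking candidates on their sense and antisense reads, and the one listed for ETS1 held 0 reads here. Without TSS reads, ETS1 has no TSS level or pausing index. LOC101929517, which lies within the ETS1 gene body on the opposite strand, had 0 to 1 read per library, and no other counted gene overlapped it on its own strand.

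ELF3, an epithelial factor of crypt and villus differentiation, combined a large genotype difference with the largest hypoxia difference among the members. In its gene body (chr1:201980690-201986316, plus strand) the WT libraries held 36.5 and 61.1 CPM in normoxia and 97.4 and 179 CPM in hypoxia. The HIF1A-/- libraries held 7.32 and 13.8 CPM in normoxia and 14.6 and 28.0 CPM in hypoxia. Replicate 2 was the higher library in all 4 groups. Yet no HIF1A-/- library, hypoxic ones included, reached the lowest WT library. The ratio of WT to HIF1A-/- means was 4.63 in normoxia and 6.49 in hypoxia, and the fitted log2 fold changes of HIF1A-/- over WT were -2.21 ± 0.47 and -2.70 ± 0.47, both called. Among 6 epithelial markers 0 were called between genotypes by edgeR, with 2 at an unadjusted p under 0.05 in normoxia and 4 in hypoxia, and their summed gene body level was 589 to 713 CPM in WT and 643 to 756 CPM in HIF1A-/- libraries. With a replicate block, a term that pairs libraries of the same number, EPCAM was called lower in HIF1A-/- cells in both conditions (log2 fold changes of -0.62 and -0.59). In hypoxia it also called CDH1 lower and KRT8 and KRT18 higher. Of all genes the block called 6.39% lower in normoxia, and 15.1% lower and 13.1% higher in hypoxia. The part of these markers in the ELF3 and EHF values was not tested.

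Within replicate numbers, the hypoxia response of the ELF3 gene body was close between replicates of a genotype. Hypoxic over normoxic CPM was 2.67 and 2.93 in replicates 1 and 2 of WT, and 1.99 and 2.04 in replicates 1 and 2 of HIF1A-/- cells. ELF3 therefore had its higher levels in hypoxia in both genotypes, from an HIF1A-/- starting level several-fold lower. The log2 fold change was 1.50 ± 0.45 in WT and 1.01 ± 0.46 in HIF1A-/- cells. Neither was called in the unpaired fit, and DESeq2 called that of WT. Both were called with the replicate block, at log2 fold changes of 1.48 and 1.01. The difference between the 2 responses, 0.49 ± 0.64 on the log2 scale, was not called with or without the block (0.47 with it), although both WT ratios above exceeded both HIF1A-/- ratios. Leaving out WT hypoxia replicate 2 lowered the WT value to 1.00, and leaving out HIF1A-/- normoxia replicate 2 or hypoxia replicate 2 put the HIF1A-/- value at 1.56 or 0.46.

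Near its start ELF3 showed a wide gap between genotypes and a small difference with oxygen that was not called. The TSS region (chr1:201979639-201980189, plus strand) held 470.2 and 588 CPM in normoxic WT cells and 571 and 733 CPM in hypoxic WT cells. It held 58.2 and 92.9 CPM in normoxic HIF1A-/- cells and 69.6 and 129.9 CPM in hypoxic HIF1A-/- cells. WT and HIF1A-/- libraries were far apart, whereas normoxic and hypoxic libraries overlapped within each genotype. Within replicate numbers hypoxic over normoxic CPM was 1.21 and 1.25 in WT and 1.20 and 1.40 in HIF1A-/- cells, higher in all 4 pairs. The log2 fold change of HIF1A-/- over WT was -2.79 ± 0.29 in normoxia and -2.70 ± 0.28 in hypoxia. That of hypoxia was 0.30 ± 0.26 in WT and 0.40 ± 0.28 in HIF1A-/- cells, and neither was called with or without the block.

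The pausing index (PI), the density of TSS reads over that of gene body reads, was lower in hypoxia. Its WT values were 132 and 98.3 under normoxia against 59.8 and 41.9 under hypoxia, and in HIF1A-/- cells 81.3 and 69.0 in normoxia and 48.8 and 47.4 in hypoxia. Each region was scaled to its own library totals, so the PI is relative to all genes of its library rather than an absolute occupancy. A change in TSS over gene body reads shared by all genes of a library would not show in it. GENCODE places 6 of 10 ELF3 transcript starts in the TSS region, 1 upstream of it and 3 within the gene body. Which starts were in use was not tested, so the PI need not be that of 1 promoter. The groups did not overlap with oxygen in either genotype. Between genotypes the PI was lower in HIF1A-/- cells without overlap in normoxia (means of 115 in WT and 75.1), and overlapped in hypoxia. Neither genotype difference was called. The log2 change in PI with hypoxia was -1.19 ± 0.24 in WT, which was called, and -0.63 ± 0.26 in HIF1A-/- cells, which was not. ELF3 was 1 of 9 members with a PI that was called lower in hypoxic WT cells, where 0.186% of 14494 genes were. The genotype difference in this change was -0.56 ± 0.36 and not called. The WT call was lost at an FDR of 5% and when any 1 of 5 libraries was left out: WT normoxia 1 or 2, WT hypoxia 2, or HIF1A-/- hypoxia 1 or 2.

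**Figure D2:**
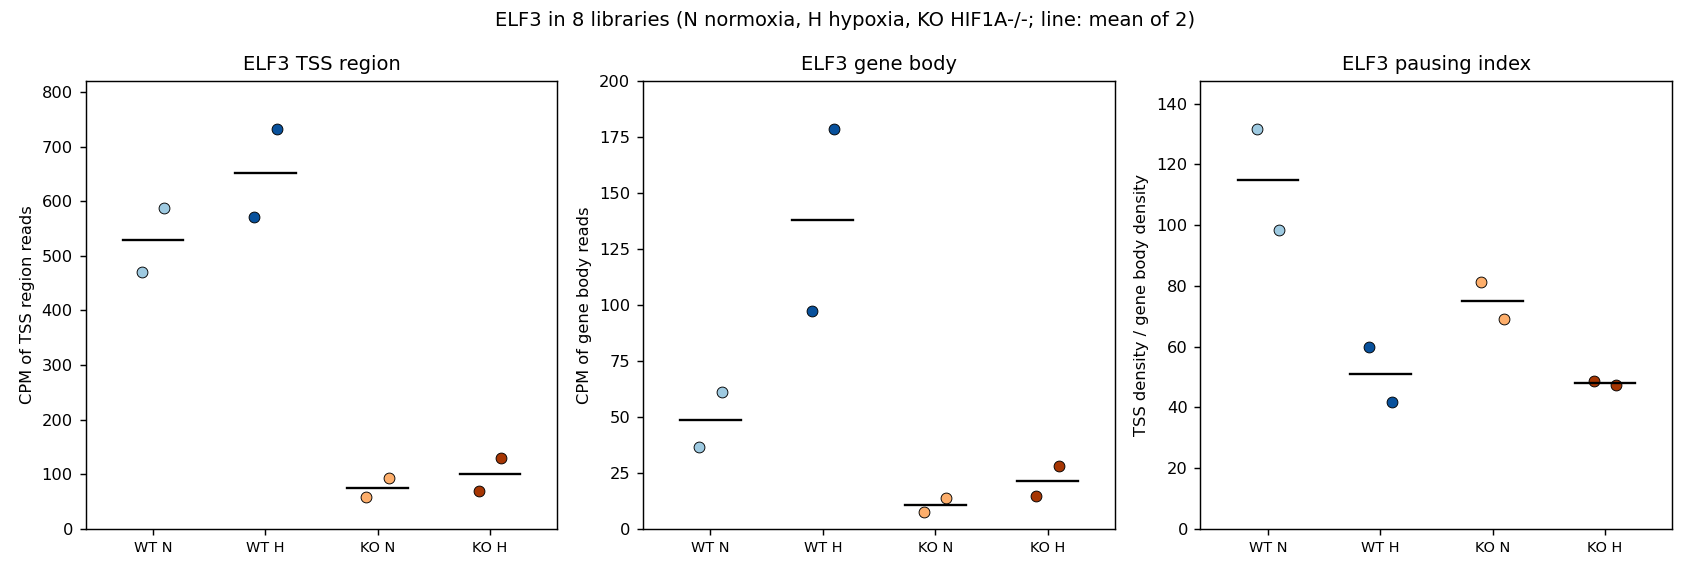
ELF3 in each of the 8 libraries: CPM in the TSS region (left), CPM in the gene body (middle) and the pausing index (right), with a line at the mean of 2 libraries for WT and HIF1A-/- (KO) cells in normoxia (N) and hypoxia (H). TSS reads separate by genotype, from 58.2 to 733 CPM, and gene body reads by genotype and oxygen. The pausing index separates by oxygen in both genotypes, and by genotype in normoxia but not in hypoxia.

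EHF, like ELF3 a member of the epithelial branch, was lower in HIF1A-/- cells and not separated by oxygen. Its gene body (chr11:34655011-34684835, plus strand) held 21.4 and 38.6 CPM in normoxic WT cells and 24.4 and 33.1 CPM in hypoxic WT cells. The HIF1A-/- libraries held 8.47 and 13.6 CPM in normoxia and 7.51 and 12.1 CPM in hypoxia. Every HIF1A-/- library was below every WT library, and hypoxic and normoxic libraries overlapped in both genotypes. WT means were 2.72-fold those of HIF1A-/- cells in normoxia and 2.94-fold in hypoxia, log2 fold changes of -1.44 ± 0.38 and -1.55 ± 0.38. Of these the one in hypoxia was called, and both were called with the replicate block. The counted TSS region of EHF held only 15 and 19 reads in normoxic WT cells, 22 and 22 in hypoxic WT cells, 0 and 3 in normoxic HIF1A-/- cells and 2 and 2 in hypoxic HIF1A-/- cells. GENCODE places 8 of 12 EHF transcript starts upstream of that region and 1 inside it, so these few reads need not measure its main promoter.

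Between genotypes, the members called in the unpaired edgeR fit were lower in HIF1A-/- cells. In hypoxia DESeq2 and the replicate block also called ELF4, which was higher. In normoxia 2 of 10 gene bodies were called lower, ETS1 and ELF3, and 0 higher, where 1.05% of 16686 genes tested were called lower and 0.725% higher. In hypoxia 3 of 10 were called lower, ETS1, ELF3 and EHF, and 0 higher, where 2.79% of all genes were lower and 1.47% higher. DESeq2 called 3 members in normoxia, adding EHF, and 4 in hypoxia, adding ELF4, whose mean was 1.40-fold higher in HIF1A-/- cells. The share of all genes that DESeq2 called was not counted. With replicate numbers as a block 5 members were called lower in normoxia, adding EHF, ELF1 and ETV6, beside 6.39% of all genes. In hypoxia the block called 7 members lower, adding ELF1, ETV5, ETV6 and ELK3, beside 15.1% of all genes, and 1 higher, ELF4, beside 13.1%. In the TSS regions ELF3 was called lower in both oxygen conditions, 1 of 9 members tested, where 0.434% of 15212 genes were in normoxia and 0.664% in hypoxia. The block added EHF in both conditions and ELF1 in hypoxia, beside 2.04% and 6.97% of all genes. Leaving out WT hypoxia replicate 2 or HIF1A-/- hypoxia replicate 1 left ETS1 as the only member called at gene bodies in hypoxia. The EHF call there held only without HIF1A-/- normoxia 1 or 2. In normoxia the ELF3 call was lost without WT normoxia 1 or 2, WT hypoxia 1 or 2 or HIF1A-/- normoxia 1.

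Over the 10 members, 9 had a lower fitted gene body level in HIF1A-/- than in normoxic WT cells and 7 in hypoxia, with median log2 fold changes of -0.38 and -0.39, while the medians of all genes were -0.01 and 0.00. Libraries did not overlap and were lower in HIF1A-/- cells for 6 members in normoxia (17.4% of all genes) and 7 in hypoxia (24.6%), and were higher for 2 in hypoxia (20.9%). The members were picked with such values known, so nothing is read from these shares. The normoxic and the hypoxic comparison of genotypes share no library.

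**Figure D3:**
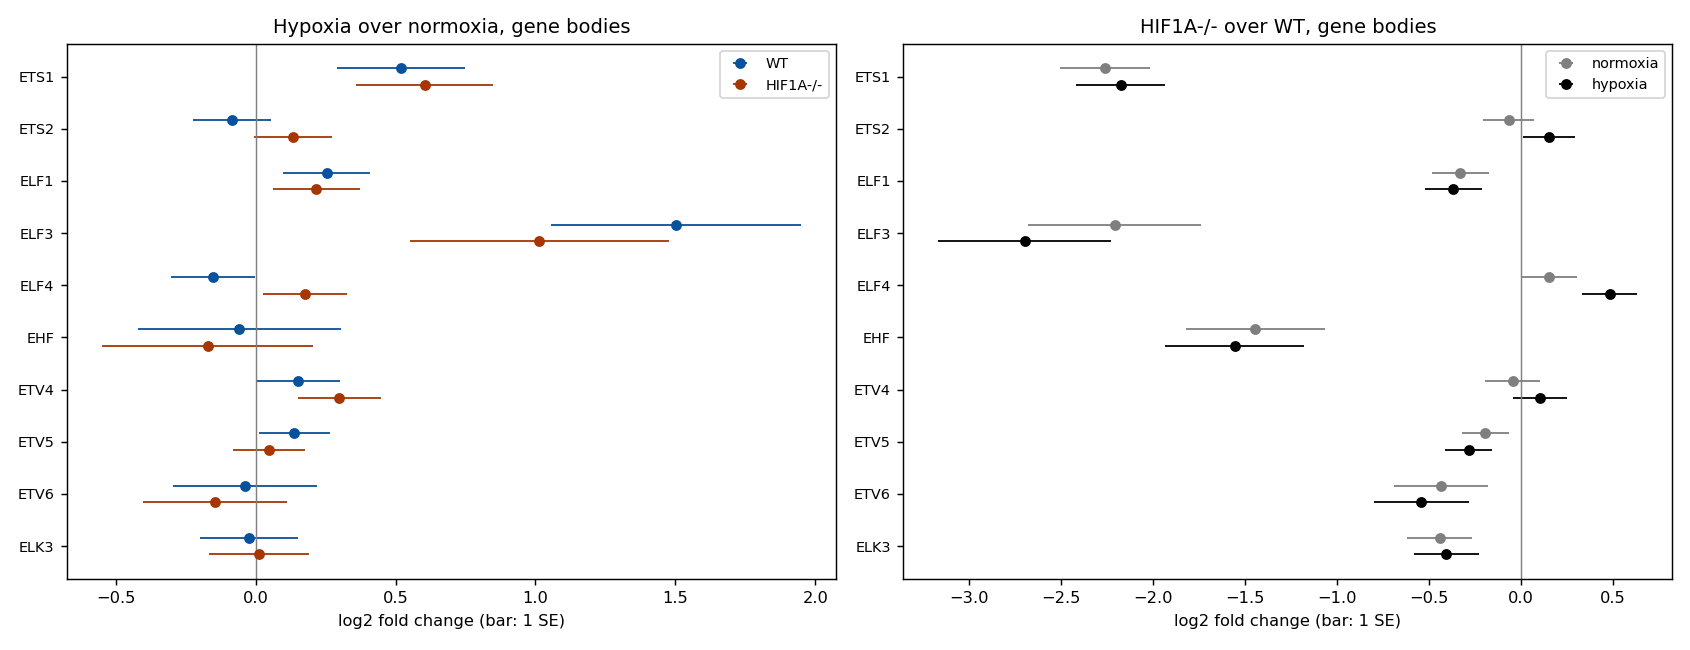
Log2 fold changes of gene body reads for the 10 members, with bars of 1 SE from edgeR, for hypoxia over normoxia in WT and HIF1A-/- cells (left) and for HIF1A-/- over WT in normoxia and hypoxia (right). ELF3 stands farthest from 0 on the left (1.50 and 1.01), and ETS1, ELF3 and EHF on the right.

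The other 7 members differed far less between genotypes. ELF1, a broadly expressed activator, held 93.2 and 117 CPM in normoxic WT cells, 115 and 135 in hypoxic WT cells, 78.6 and 88.6 in normoxic HIF1A-/- cells and 95.7 and 98.6 in hypoxic HIF1A-/- cells. Its HIF1A-/- libraries were below the WT libraries in each oxygen condition, with log2 fold changes of -0.33 ± 0.15 and -0.37 ± 0.15. ETV6, a repressor known from leukaemia fusions, held 114 and 143 CPM in normoxic WT cells, 113 and 137 in hypoxic WT cells, 74.6 and 116 in normoxic HIF1A-/- cells and 70.4 and 102 in hypoxic HIF1A-/- cells. Its groups overlapped in normoxia and were apart in hypoxia, with replicate 2 the higher library throughout. ELK3, a ternary complex factor that works with SRF, held 15.8 and 16.6 CPM in normoxic WT cells, 14.7 and 17.1 in hypoxic WT cells, 11.6 and 12.2 in normoxic HIF1A-/- cells and 12.1 and 12.0 in hypoxic HIF1A-/- cells. All its HIF1A-/- libraries were below all WT libraries, at log2 fold changes of -0.44 ± 0.18 and -0.40 ± 0.18.

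ETV4 and ETV5 are of the PEA3 group, which acts downstream of receptor tyrosine kinases. ETV4 stayed close to its WT level. The ETV5 mean in HIF1A-/- cells was 0.875 of that in WT in normoxia and 0.822 in hypoxia. ETV5 held 137 and 129 CPM in normoxic WT cells, 149 and 145 in hypoxic WT cells, 108 and 126 in normoxic HIF1A-/- cells and 115 and 126 in hypoxic HIF1A-/- cells. ETV4 held 32.4 and 35.5 CPM in normoxic WT cells, 35.4 and 40.0 in hypoxic WT cells, 34.7 and 31.2 in normoxic HIF1A-/- cells and 42.6 and 38.5 in hypoxic HIF1A-/- cells. ETV5 libraries of HIF1A-/- cells were below those of WT in each oxygen condition, and ETV4 libraries overlapped in both. ETS2, the closest relative of ETS1, held 59.0 and 66.5 CPM in normoxic WT cells, 58.8 and 59.5 in hypoxic WT cells, 58.3 and 61.7 in normoxic HIF1A-/- cells and 71.2 and 60.3 in hypoxic HIF1A-/- cells. Its libraries of the 2 genotypes overlapped in normoxia, and its genotype values were near 0, at -0.07 ± 0.14 and 0.15 ± 0.14 on the log2 scale. ELF4, known as a regulator of immune cell quiescence, held 52.1 and 46.7 CPM in normoxic WT cells, 46.2 and 42.6 in hypoxic WT cells, 58.2 and 51.7 in normoxic HIF1A-/- cells and 67.5 and 56.8 in hypoxic HIF1A-/- cells. Within replicate numbers ELF4 was lower in hypoxia in WT and higher in hypoxia in HIF1A-/- cells, and the difference between the responses, -0.33 ± 0.21, was not called.

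**Figure D4:**
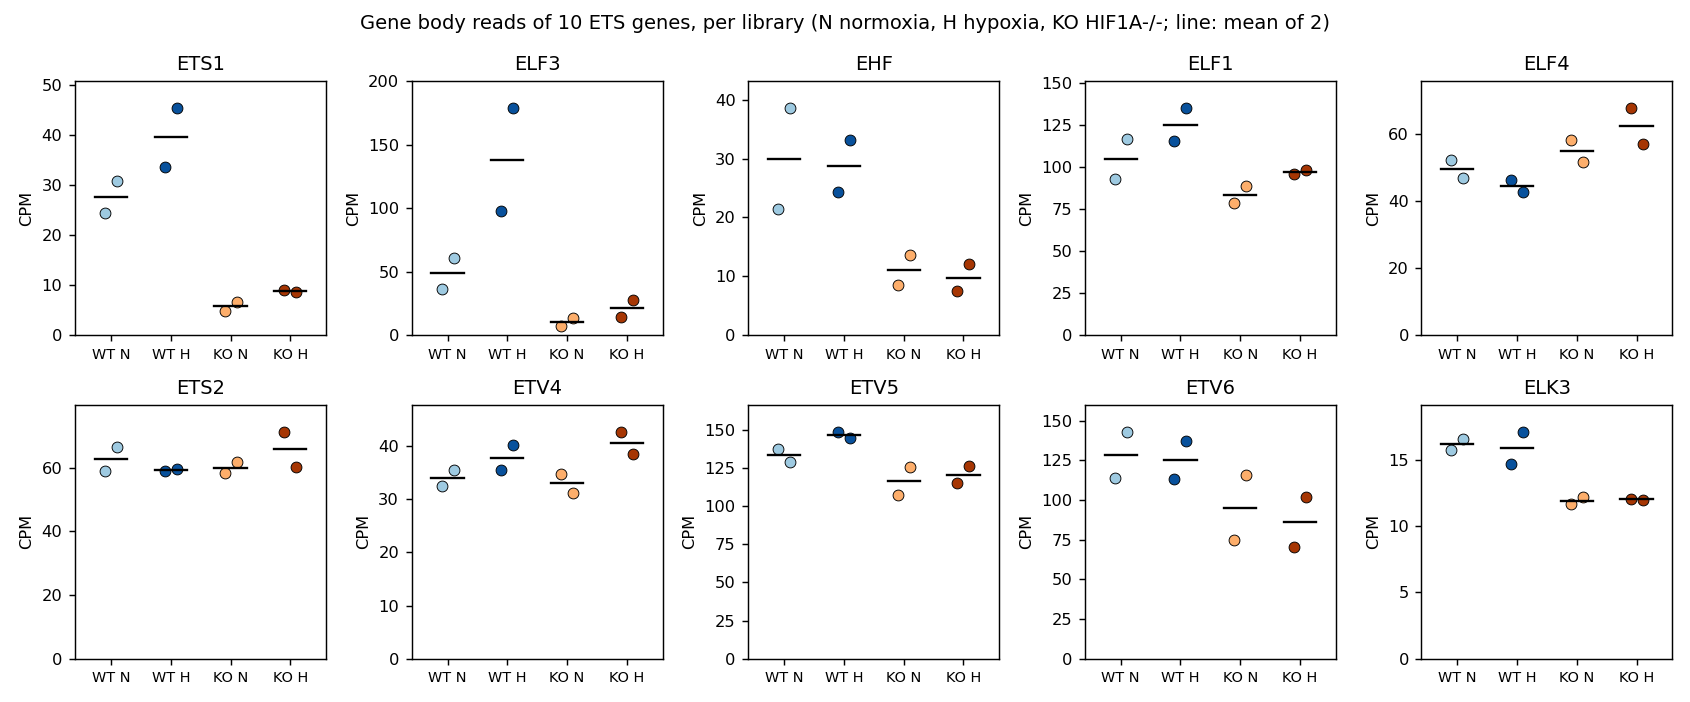
Gene body CPM of the 10 members in each library, on axes that start at 0, for WT and HIF1A-/- (KO) cells in normoxia (N) and hypoxia (H), with a line at the mean of 2 libraries. ETS1, ELF3 and EHF are low in all 4 HIF1A-/- libraries, and the other panels show smaller or no separation.

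Hypoxia alone gave few differences among the members. In WT cells 0 of 10 gene bodies were called by edgeR, and DESeq2 and the replicate block each called 1, ELF3. By edgeR 1 was higher at an unadjusted p under 0.05, where 585 of 16686 genes were. In the same comparison edgeR called 0.431% of all genes higher, or 3.73% with the block, and the share called by DESeq2 was not counted. Libraries did not overlap for 4 members, ETS1, ELF3 and ETV5 higher (18.3% of all genes) and ELF4 lower (19.4%). In HIF1A-/- cells 0 of 10 were called by edgeR, DESeq2 called 0 and the block called ELF3. By edgeR 1 was higher at an unadjusted p under 0.05, where 175 of 16686 genes were. There 0% of all genes were called higher without the block and 0.03% with it, and ETS1, ELF1, ELF3 and ETV4 were the 4 members whose hypoxic libraries lay above the normoxic ones (12.1% of all genes). For the genotype difference in the response 0 members were called, 0 had an unadjusted p under 0.05 and DESeq2 called 0, where 0.0539% of all genes were called higher in WT. At TSS regions 0 of 9 members were called with hypoxia in either genotype by edgeR or DESeq2, and 0 had an unadjusted p under 0.05, where 0.046% of genes were called higher in WT.

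The other 8 members with a PI gave no call in any comparison, with at most 2 members at an unadjusted p under 0.05 in a comparison. ETV5 was among the most paused, with a PI of 105 and 107 in normoxic WT cells and 90.4 and 74.9 in hypoxic WT cells, while ELK3 had a low PI of 4.45 and 4.59 in normoxic and 4.51 and 2.92 in hypoxic WT cells. In HIF1A-/- cells the PI of EHF, from 0 to 3 TSS reads per library, was lower on the mean than that of ELK3, at 1.39 against 7.25 in normoxia and 3.44 against 5.66 in hypoxia. GENCODE places 5 of 6 ELK3 starts upstream of its counted TSS region, as for most of those of EHF, so a low PI there need not be one of the promoter. ELF1, called at its TSS region in hypoxia with the block, had 18.9 and 31.4 CPM in its TSS region in hypoxic WT cells and 12.9 and 13.3 CPM in hypoxic HIF1A-/- cells. Its libraries did not overlap there, with a log2 fold change of -0.94 ± 0.32.

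The human ETS family has 18 other genes in the count table, of which 14 passed the filter at gene bodies, FLI1, FEV, ETV3L and SPIC failing it. None of the 14 was called in any of the 5 comparisons by edgeR or DESeq2, with 1 to 2 at an unadjusted p under 0.05 in 3 of them and 0 in the others. The block called ETV7 and SPI1 lower in normoxic HIF1A-/- cells, beside 6.39% of all genes. In hypoxia it called ELF2, ELF5 and ETV1 lower, beside 15.1% of all genes, and ERF higher, beside 13.1%. The 6 most densely transcribed were ERF, ELK4, ETV2, ETV3, ELK1 and GABPA. ERF, a repressor controlled by ERK, had mean densities of 12.4 RPKM in normoxic WT cells, 12.0 in hypoxic WT cells, 14.7 in normoxic HIF1A-/- cells and 17.2 in hypoxic HIF1A-/- cells. Its log2 fold change of HIF1A-/- over WT in hypoxia was 0.52 ± 0.19 (edgeR adjusted p = 0.23). The values of the other 5 in the same comparison were -0.24 ± 0.13 for ELK4, -0.48 ± 0.38 for ETV2, 0.16 ± 0.14 for ETV3, 0.13 ± 0.18 for ELK1 and -0.13 ± 0.13 for GABPA. GABPA is the widely expressed DNA-binding subunit of GABP.

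Regulators and partners of ETS factors showed no call. Of 15 counted genes, among them the repressor CIC, the ubiquitin ligase RFWD2 (COP1), the kinase MAPK3, and the cofactors EP300 and CREBBP, 0 were called by edgeR in any comparison at gene bodies or TSS regions, with 0 to 2 at an unadjusted p under 0.05. With the block at gene bodies RUNX1 and TLE1 were higher in normoxic HIF1A-/- cells, and RFWD2 lower in WT hypoxia against normoxia. The shares of all genes that the block called in these directions are not given here, so nothing is read from these calls. In hypoxic HIF1A-/- cells the block called ATXN1L higher, beside 13.1% of all genes, and RFWD2 lower, beside 15.1%.

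Of 16 textbook ETS targets, 15 were tested at gene bodies and 14 at TSS regions. PLAUR, the urokinase receptor, was called higher in normoxic HIF1A-/- cells, 1 of 15, where 0.725% of all genes were. Its gene body held 43.1 and 45.2 CPM in normoxic WT cells and 103 and 83.5 CPM in normoxic HIF1A-/- cells, which did not overlap, a log2 fold change of 1.08 ± 0.23 (edgeR adjusted p = 0.0915). In the TSS regions MMP7, a matrix metalloproteinase of gut epithelium, was called lower in HIF1A-/- cells in both conditions. Of all genes 0.434% were called lower in normoxia and 0.664% in hypoxia. EGR1, an immediate early gene, was called higher in hypoxia, where 0.44% of all genes were. MMP7 had 20 and 32 TSS reads in normoxic WT cells, 15 and 57 in hypoxic WT cells, 1 and 2 in normoxic HIF1A-/- cells and 1 and 1 in hypoxic HIF1A-/- cells, so its adjusted p of 0.0968 and 0.0429 (edgeR) rest on few reads. EGR1 held 67.0 and 85.0 CPM in hypoxic WT cells and 211 and 177 CPM in hypoxic HIF1A-/- cells, a log2 fold change of 1.35 ± 0.29 (edgeR adjusted p = 0.0592). The other targets were not called in the unpaired fit. With the block 5 of 15 gene bodies were called in normoxia, PLAUR, CCND1 and SPRY4 higher and CLDN7 and MMP14 lower in HIF1A-/- cells. In hypoxia it called 4 between genotypes, CCND1, SPRY4 and PLAU higher and CLDN7 lower. Of all genes it called 6.39% lower in normoxia, and 15.1% lower and 13.1% higher in hypoxia. The share that it called higher in normoxia is not given here. Nothing is read from these counts about ETS targets. CCND1, the cyclin D1 gene, had block log2 fold changes of 1.25 and 1.52 in normoxia and hypoxia (edgeR adjusted p = 0.0617 and 0.0163), and SPRY4, a feedback inhibitor of receptor tyrosine kinase signalling, of 0.62 and 0.75 (edgeR adjusted p = 0.00577 and 0.00155). The CCND1 gene body held 275 and 310 CPM in normoxic and 279 and 265 in hypoxic WT cells. In HIF1A-/- cells it held 1087 and 448 CPM in normoxia and 1149 and 527 in hypoxia. Its HIF1A-/- replicates thus differed widely, with replicate 1 the higher in both conditions. With hypoxia in WT the block called 2, CLDN7 higher, beside 3.73% of all genes, and SPRY4 lower. At TSS regions it called MMP7 lower and EGR1 higher in HIF1A-/- cells in both conditions, and in hypoxia SPRY4 and FOS higher and SERPINB5 lower. There it called 2.04% of all genes lower in normoxia and 6.97% in hypoxia. The shares that the block called higher at TSS regions, or lower with hypoxia in WT, are not given here. Nothing is read from the calls in those directions.

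Among the 3 genes most like ETS1 over the 8 libraries, by Pearson's r of log2(gene body CPM + 0.5) among all genes tested, were GNG4 (r = 0.992) and SUSD1 (0.992). Those most like ELF3 were LONRF1 (0.996), LOC100130476 (0.992) and LINC00944 (0.992). LONRF1 had mean CPM of 57.8 in normoxic WT cells, 73.5 in hypoxic WT cells, 40.8 in normoxic HIF1A-/- cells and 46.6 in hypoxic HIF1A-/- cells, a far narrower range than that of ELF3. The 8 points share 4 groups and their replicate numbers, so these coefficients are a description.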

How the data were processed

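Gene counts of 8 PRO-seq libraries were analysed as deposited. According to the study's methods and the submitters' processing notes, the authors trimmed the reads, aligned them to GRCh37/hg19 with HISAT2 2.1.0, filtered them on mapping quality with SAMtools 1.5 and counted them with featureCounts (Subread 1.6.2) in 1 TSS region of 551 bases and 1 gene body per RefSeq gene, so that the deposited counts are raw reads per region. For each gene 1 start was chosen by rank of reads and joined to the shortest gene body, so isoforms with other starts are not resolved. Libraries are strand-specific per the labels, and the strand setting of the counting is not given in the sources used here.

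Genes with more than 0.5 CPM in at least 2 libraries were kept, 16686 gene bodies and 15212 TSS regions. Group means of all 4 groups were fitted with edgeR 4.0.16 in R 4.3.3 (TMM scaling, quasi-likelihood test, Benjamini-Hochberg adjustment over all genes, FDR of 10%), and 5 comparisons were read from each fit. CPM are on the TMM scale, RPKM are these CPM per kilobase, and the SE is that of the fitted log2 fold change. For the pausing index, TSS and gene body counts were fitted together with a term per library. Fits were tested on simulated data with known changes. Alternatives were DESeq2 1.42.0, library totals, no filter, an FDR of 5%, only the groups compared, a replicate block and leaving out each library in turn. For the block, replicate numbers were taken to pair the libraries, since deviations from the group means of same-numbered libraries correlated in all 6 pairs of groups, with r of 0.501 to 0.848 at gene bodies and 0.218 to 0.522 at TSS regions. The labels name no such pairing. With 2 libraries per group the 6 correlations are not independent of each other, so they do not settle it. Totals per library were 18125234 to 23622392 reads at gene bodies and 2783581 to 5966348 at TSS regions, so TSS values carry more counting error.

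The members and gene lists were chosen with earlier results of these data known, and no result is supported by that choice. The p-values printed for listed genes, and the counts under a p threshold, are likewise a description. Named were all 10 members, the other ETS genes called or among the 6 densest, the called genes of the regulator and target lists, the 3 genes most correlated with ETS1 and with ELF3, and HIF1A. Some items that these rules would name are not reported here. Transcript starts are those of GENCODE on GRCh37, and promoter windows are the 250 bases before the 51st base of the TSS region in GRCh37.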

Additional observations from a re-analysis of the deposited data

How the results depend on the processing

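No called fold change of a member changed sign under any alternative run. At gene bodies the 2 members called in normoxia between genotypes became 1, ETS1, at an FDR of 5% and with library totals, and ranged from 1 to 2 when 1 library was left out. The 3 called in hypoxia ranged from 1 to 3 when 1 library was left out, and were 2 at an FDR of 5% and with library totals, which lost EHF. The replicate block, which pairs libraries by number, gave 5 members in normoxia and 8 in hypoxia between genotypes, and 1 with hypoxia in WT and 1 in HIF1A-/- cells, ELF3 each time. It also gave 2 of the other ETS genes in normoxia and 4 in hypoxia. DESeq2 called 1 member with hypoxia in WT, again ELF3, and between genotypes 3 in normoxia, adding EHF, and 4 in hypoxia, adding ELF4, which was higher in HIF1A-/- cells. At TSS regions the 1 member called between genotypes became 2 in normoxia and 3 in hypoxia both without the filter and with the block, and 2 in hypoxia with only the groups compared. These counts ranged from 1 to 2 when 1 library was left out in either condition. The pausing index call of ELF3 in WT hypoxia became 0 at an FDR of 5%, and ranged from 0 to 1 when 1 library was left out. Apart from these the block changed no other count of members called, or of other ETS genes called at gene bodies. Of 1216 member fold changes under an alternative, 57 moved by more than 1 SE, all of them when a library was left out. The cause of these shifts was not tested. The counted TSS regions of EHF and ETS1 held few or 0 reads, so a difference there was not detectable for ETS1, and whether depth or the choice of start sets this was not tested.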

Other observations

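In 3 cases a member lies near another ETS gene. FLI1, whose counted start is 106 kb from that of ETS1 on chromosome 11, held 0.0478 to 0.332 CPM over its gene body across the 8 libraries, against 4.83 to 45.3 CPM for ETS1. ERG, 144 kb from ETS2 on chromosome 21, held 0.144 to 0.705 CPM, against 58.3 to 71.2 CPM for ETS2. ELF5, the other gene of the epithelial branch, starts 119 kb from EHF on chromosome 11 and held 3.88 to 18.8 CPM, against 7.51 to 38.6 CPM for EHF. Starts here are those of the count table. CPM over gene bodies of different length are not levels that can be ranked between genes, so the pairs are given side by side only.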
